A study of Bos taurus with 96 samples.

Results

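The 10 genes described here control how fast skeletal muscle breaks its proteins down and how far it is allowed to grow. They are FBXO32, TRIM63, FOXO1, FOXO3, KLF15, MSTN, CAPN1, CAPN2, CAPN3 and CAST. A probe was assigned to a gene where its design accession is a bovine RefSeq accession of that gene or where the study's probe tables name it. By this rule 8 of the 10 genes had a probe, with 31 probes in all, while FOXO1 and FOXO3 were not analysed here. Of the 31 probes, 24 are in the authors' deposited value table, and both MSTN probes are among the 7 that are not. Each gene is represented by its lead probe, the one with the highest mean signal over all 96 arrays, and its other probes are described by whether they moved the same way. Across the whole array 10680 genes could be named.

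Muscle fibres remove proteins through several routes. FBXO32 (atrogin-1) and TRIM63 (MuRF1) are ubiquitin ligases that tag muscle proteins for the proteasome and are induced in wasting muscle. FOXO transcription factors switch both on when insulin and growth factor signalling is low, and KLF15, a transcription factor induced by glucocorticoids, promotes amino acid breakdown in muscle and also acts in fat cells. MSTN encodes myostatin, a growth factor secreted by muscle that restrains muscle mass and whose loss gives double-muscled cattle. The calpains are calcium-activated proteases. CAPN1 and CAPN2 encode the catalytic subunits of the ubiquitous μ-calpain and m-calpain, CAPN3 encodes the calpain of skeletal muscle, and CAST encodes calpastatin, the inhibitor of the ubiquitous calpains. In cattle the calpain system is best known for softening meat after slaughter.

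RNA came from steers of 3 breeds, Angus, Hereford and Wagyu x Angus, which the study's design text puts at 26 months of age and 259 days in a feedlot. The longissimus dorsi muscle with its marbling fat in place (LD) was read on 36 arrays, 24 from steers kept on pasture after weaning (8 per breed) and 12 from steers that were fed a supplement at that stage (4 per breed). Intramuscular fat dissected from this muscle (IMF), rump fat from under the skin (SC), fat between muscles (Inter), fat around the kidney (Kid) and fat of the omentum (Omen) were each read on 12 arrays from pasture steers, 4 per breed. The fat arrays came from fewer steers than arrays and the labels do not tie arrays to steers, so arrays that share a steer were treated as independent. How far this moves the p-values between depots was not tested. Some LD samples, of both diets, came from an earlier kill, so their steers may have been younger and fed for less time. The labels do not mark them, so kill may be partly confounded with diet, and in every supplement against pasture value below the 2 cannot be told apart. P-values over LD arrays measure the spread between arrays as labelled. Arrays on the same slide were correlated (0.429 in the LD diet fit), so these p-values may be too small where slide is not a block.

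A level is given as the log2 of an array's processed signal minus the 75th percentile of that array, so that 0 is a probe at that percentile and 1 unit is a doubling. It measures RNA per unit of total RNA, and in tissue samples fewer cells of a type and less RNA per cell cannot be told apart. Between 66.2% and 96% of probes were well above background (LD 66.2% to 81.1%). All 11 skeletal myofibre markers with a probe were well above background on most LD arrays, with a log2 summed level of 11.83 to 12.63, as the label of the tissue implies. Slides carry 4 arrays, and 7 of the 9 LD slides hold a single breed and diet. The supplement arrays of a breed all lie on 1 slide, so within a breed diet and slide cannot be told apart.

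The first comparison asked whether supplement feeding after weaning left a mark on these genes in muscle. None of the 7 lead probes in the value table passed the threshold of 0.05 on the adjusted p, where 11.2% of all probes in the value table did (3850 probes, and 8801 at an unadjusted p under 0.05). The ligases lay close together in both diets. FBXO32 ranged from 4.76 to 6.54 with a median of 5.53 in supplement steers and from 4.99 to 6.59 with a median of 5.90 in pasture steers, a difference of -0.20 ± 0.14 (SE, adjusted p = 0.401). Its 3 other probes differed by -0.25, -0.11 and -0.03. TRIM63 ranged from 4.77 to 6.24 (median 5.48) against 4.29 to 6.14 (median 5.32), a difference of 0.26 ± 0.15 (adjusted p = 0.294). So the 2 ligases, often read together as markers of wasting, had estimates of opposite sign, neither of which passed the threshold. KLF15 had the same median, 1.71, in both diets and a difference of 0.14 ± 0.15 (adjusted p = 0.609), although supplement arrays were more scattered (0.56 to 2.96, SD 0.65) than pasture arrays (1.20 to 2.19, SD 0.28).

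**Figure D1:**
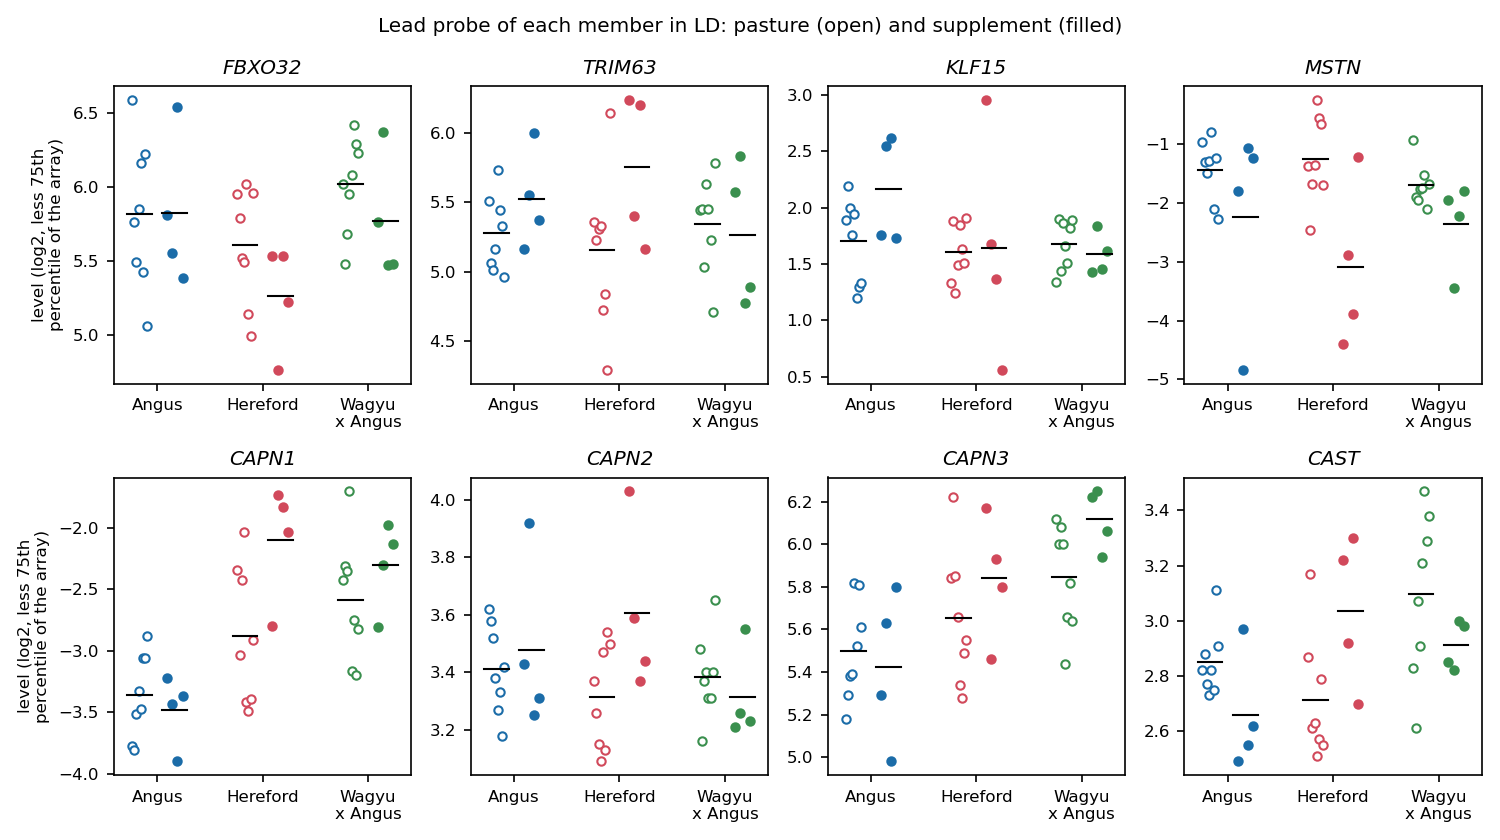
Level of the lead probe of each gene (log2, less the 75th percentile of the array) in each LD array by breed, with open points for pasture, filled points for supplement and a bar at each group mean. The groups overlap in every panel, and MSTN has its lowest values in supplement arrays, down to -4.84 in Angus and -4.40 in Hereford.

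MSTN was the only member whose lead probe was called. All 36 LD arrays read it well above background. In supplement Angus the levels were -4.84, -1.79, -1.24 and -1.07, beside a pasture range of -2.27 to -0.80 (median -1.30). In supplement Hereford they were -4.40, -3.88, -2.88 and -1.21, beside -2.46 to -0.24 (median -1.37). In supplement Wagyu x Angus they were -3.44, -2.22, -1.95 and -1.79, beside -2.11 to -0.93 (median -1.76). A single Angus array, 3 Hereford arrays and 2 Wagyu x Angus arrays therefore lay below every pasture array of their breed, and the other supplement arrays lay within the pasture range. MSTN averaged -2.56 ± 1.30 (SD, n = 12) on supplement and -1.46 ± 0.56 (SD, n = 24) on pasture, a fall of 2.14-fold (log2 difference -1.10 ± 0.31 SE, adjusted p = 0.0217 over all 43653 non-control probes, of which 8.54% were called). The second MSTN probe had the same direction without passing (-0.84 ± 0.30, adjusted p = 0.080).

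The MSTN call was not a firm one. It was lost without the lowest Angus array (-0.87, adjusted p = 0.0519) or without the lowest Hereford array (-0.92, adjusted p = 0.0524), and with normexp background correction (-0.59, adjusted p = 0.0762). With slide as a random block its adjusted p was 0.805, and only 1 probe of the whole value table was then called at all. Against the 12 pasture arrays scanned on the same day as the supplement arrays of their breed, the difference was -1.02 (adjusted p = 0.119), so the size held while the call did not.

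Markers of other cell types also differed between diets. Of 7 adipocyte markers 4 were lower on supplement (median difference -1.51), with a summed log2 level of 2.33 to 4.02 against 2.34 to 6.58 on pasture. The 12 pasture arrays on slides 2, 20 and 23, all Angus or Wagyu x Angus and including every pasture Angus array, read 4.46 to 6.58 and the other 12 read 2.34 to 4.48, so the ranges just overlapped. In Hereford the ranges were 2.47 to 4.02 on supplement and 2.34 to 4.48 on pasture. Without the 12 arrays of those slides, which leaves only Hereford and Wagyu x Angus pasture arrays, MSTN differed by -1.36 (adjusted p = 0.0587). Of 4 endothelial markers 3 were higher (median 0.45), with sums of 2.55 to 3.29 against 1.94 to 3.32. Myofibre markers were higher in 2 of 11 (median 0.13; sums 11.83 to 12.63 against 12 to 12.53), smooth muscle markers in 1 of 5 (sums 6.69 to 8.64 against 6.60 to 8.38), and none of 3 macrophage, 5 Schwann cell and 4 tendon markers was called (sums 0.51 to 1.21 against 0.32 to 1.67, 2.67 to 3.38 against 2.37 to 3.43, and 1.46 to 3.40 against 0.54 to 2.65). The part of these lists in the member differences was not tested. The Angus array with the least MSTN had myofibre and adipocyte sums of 12.09 and 3.29 and the lowest Hereford array 12.47 and 2.90, both inside the range of the other supplement arrays. Of the supplement arrays this Angus array had the highest macrophage sum (1.21), and this Hereford array the lowest macrophage (0.51) and Schwann cell (2.67) sums.

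Among the proteases the lead probes did not pass. CAPN1 ranged from -3.90 to -1.73 (median -2.55) on supplement and from -3.81 to -1.70 (median -3.04) on pasture, a difference of 0.32 ± 0.16 (adjusted p = 0.219). CAPN2 ranged from 3.21 to 4.03 against 3.09 to 3.65, a difference of 0.10 ± 0.08 (adjusted p = 0.454). A second probe of each was called as higher on supplement. For CAPN1 it stood at -3.12 ± 0.64 (SD, n = 12) against -3.51 ± 0.44 (n = 24), a difference of 0.39 ± 0.13 (adjusted p = 0.0416). For CAPN2 it stood at 0.10 ± 0.49 against -0.24 ± 0.21, a difference of 0.34 ± 0.10 (adjusted p = 0.0291). Both calls were lost with slide as a random block (adjusted p 0.610 and 0.653) and against same-day pasture arrays (0.24, adjusted p = 0.140, and 0.30, adjusted p = 0.131). The third CAPN1 probe ran the other way (-0.12 ± 0.13), so the probes of this gene did not move together.

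**Figure D2:**
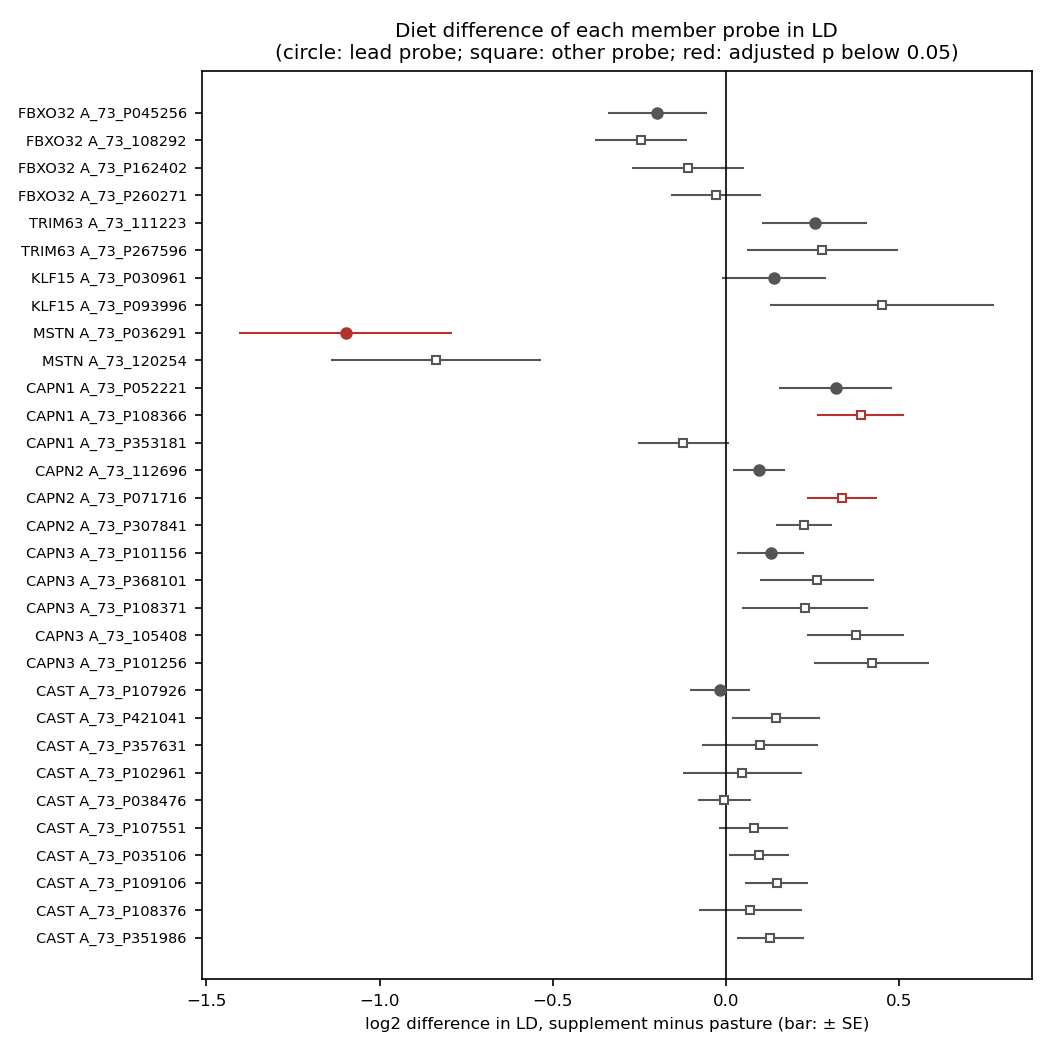
Difference between supplement and pasture in LD (log2, x axis) for each of the 31 member probes, with circles for lead probes, squares for other probes, bars for ± SE and red for an adjusted p below 0.05. The MSTN lead probe lies at -1.10, the called CAPN1 and CAPN2 probes lie at 0.39 and 0.34, and the 10 CAST probes cluster around 0.

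CAPN3, the muscle calpain, differed by 0.13 ± 0.10 (adjusted p = 0.424), from 4.98 to 6.25 on supplement and from 5.18 to 6.22 on pasture. All 4 of its other probes had positive estimates of 0.23 to 0.42, none called (lowest adjusted p 0.0902). The calpain inhibitor CAST was the flattest member, with lead levels of 2.49 to 3.30 against 2.51 to 3.47 and a difference of -0.02 ± 0.09 (adjusted p = 0.932). None of its 9 other probes was called.

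Whether diet acted alike in the 3 breeds was tested next, and CAST was the one member with called probes. A called diet by breed term was found for 3 of its 10 probes, among 16.2% of all probes in the value table (12.2% of all non-control probes). These 3 probes are A_73_P109106 (F = 11.9, adjusted p = 0.00452), A_73_P351986 (adjusted p = 0.0144) and A_73_P107551 (adjusted p = 0.0261). On A_73_P109106 supplement Hereford arrays read -0.81, -0.47, -0.38 and -0.27, all above the 8 pasture Hereford arrays (-1.29 to -0.90). Supplement Angus arrays read -1.54, -1.41, -1.23 and -0.94 beside -1.24 to -0.77, and supplement Wagyu x Angus arrays -0.85, -0.69, -0.63 and -0.43 beside -1.14 to -0.51. On this probe CAST was higher on supplement in Hereford (0.58 ± 0.12, adjusted p = 0.00242), while the differences in Angus (-0.27) and Wagyu x Angus (0.13) were not called. The other called probes gave 0.56 ± 0.14 and 0.51 ± 0.15 in Hereford, another, uncalled for the diet by breed term (adjusted p = 0.0609), gave 0.63 ± 0.20 (adjusted p = 0.0277), and the lead probe gave 0.32 ± 0.14 (adjusted p = 0.102) with a diet by breed adjusted p of 0.083. All probes of a gene share its RNA and are not separate tests of it. With slide as a random block no probe on the array kept a diet by breed call (CAST A_73_P109106 adjusted p = 0.770), against same-day pasture arrays its adjusted p was 0.0774, and with normexp it was 0.0936.

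Hereford was also the breed in which other members differed with diet, against a background of 16.6% of probes called within Hereford, 9.08% within Angus and 4.3% within Wagyu x Angus (12.3%, 6.55% and 3.33% of all non-control probes). The CAPN1 lead probe read -2.80, -2.03, -1.83 and -1.73 in supplement Hereford beside -3.49 to -2.03 on pasture (0.78 ± 0.27, adjusted p = 0.0426). The second probes of CAPN1 and CAPN2 were higher by 0.72 ± 0.20 (adjusted p = 0.0146) and 0.69 ± 0.16 (adjusted p = 0.00425). MSTN was lower by 1.85 on the log2 scale in Hereford (-1.85 ± 0.52, adjusted p = 0.020), beside -0.80 ± 0.52 in Angus (95% interval -1.87 to 0.27) and -0.65 ± 0.52 in Wagyu x Angus (-1.71 to 0.42), neither called. These 3 genes had no called diet by breed term (lowest adjusted p 0.0526, for the second CAPN2 probe, and 0.448 for MSTN), so their Hereford difference was not shown to exceed that of the other breeds. These values come from a fit that shares its spread over all LD arrays. In a fit of Hereford arrays alone the calls were lost for MSTN (adjusted p = 0.0731), the CAPN1 lead probe (0.118) and the second probes of CAPN1 (0.0848) and CAPN2 (0.0518), and of the 4 CAST probes A_73_P109106 (0.0212) and A_73_P351986 (0.0427) were still called. Over all breeds the diet difference of the CAPN1 lead probe was 0.11 with scan day as a block (adjusted p = 0.65). FBXO32, TRIM63 and KLF15 had no called difference within any breed, the nearest being TRIM63 in Hereford (0.60 ± 0.26, adjusted p = 0.105).

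The wider breakdown machinery was read from a list of 76 genes, of which 62 had a probe. Between diets 2 rose and 6 fell, or 12.9%, against 12.8% of the lead probes of all named genes (640 up and 722 down), so the list stood at the background share. Its median difference was -0.08, beside -0.01 over all named genes. Of 13 ubiquitin ligases and related genes 1 rose and 1 fell, none of 9 proteasome subunits was called, and of 10 autophagy and lysosome genes 1 fell. FOXO and glucocorticoid targets held 3 that fell among 14 (median -0.16), myostatin signalling 1 that rose and 1 that fell among 11, and the 5 other calpain system genes none.

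The largest of these was GADD45A, a stress-induced gene known to promote muscle atrophy. It ranged from 1.21 to 3.32 (median 2.18) on supplement and from 2.05 to 4.93 (median 3.59) on pasture, and fell by 1.44 on the log2 scale (SE 0.25, adjusted p = 0.000491). By breed the estimate was -2.26 for Angus, -0.56 for Hereford and -1.51 for Wagyu x Angus. It stayed called against same-day pasture arrays (-1.34, adjusted p = 0.00692), though not with slide as a random block (adjusted p = 0.285). TRIM55, a sarcomeric relative of TRIM63, rose by 0.91 (SE 0.18, adjusted p = 0.00159), from -1.79 to 0.08 on pasture to -0.67 to 1.88 on supplement. FST, the myostatin antagonist follistatin, fell alongside MSTN (-0.50, adjusted p = 0.0387), whereas the follistatin-like gene FSTL1 rose (0.27, adjusted p = 0.0189). Of the glucocorticoid targets TSC22D3 (GILZ) fell by 0.46 (adjusted p = 0.019) and KLF9 fell by 0.31 (adjusted p = 0.0208). TRIM32, a ligase of thin filament proteins, fell by 0.39 (adjusted p = 0.0133) and ATG12, which conjugates ATG5 in autophagy, fell by 0.30 (adjusted p = 0.00508). None of these 8 was called with slide as a random block, and GADD45A alone was called against same-day pasture arrays. Without the 12 pasture arrays on slides 2, 20 and 23 only ATG12 (-0.31, adjusted p = 0.0485) and FSTL1 (0.30, adjusted p = 0.0307) were called, and the difference was -0.68 for GADD45A (adjusted p = 0.101), 0.55 for TRIM55 (adjusted p = 0.132) and -0.03 for TSC22D3.

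Breeds were compared in the 24 pasture LD arrays, where 14.7% of value table probes (13.1% of all non-control probes) were called. None of the lead probes was called over the 3 breeds, MSTN included (adjusted p = 0.392). CAPN1 and CAST came nearest. CAPN1 had lead levels of -3.81 to -2.88 in Angus, -3.49 to -2.03 in Hereford and -3.20 to -1.70 in Wagyu x Angus (adjusted p = 0.056). CAST had 2.73 to 3.11, 2.51 to 3.17 and 2.61 to 3.47 (adjusted p = 0.0589), and its pair difference between Wagyu x Angus and Hereford was 0.38 ± 0.12 (adjusted p = 0.0372, among 10.8% of probes called). The remaining CAPN1 probe, A_73_P353181, was called (F = 12.3, adjusted p = 0.0107). Its mean was -3.73 ± 0.41 (SD, n = 8) in Wagyu x Angus, -4.43 ± 0.29 in Angus and -4.47 ± 0.31 in Hereford, giving 0.70 ± 0.17 over Angus (adjusted p = 0.0374, among 1.72% of probes called) and 0.74 ± 0.17 over Hereford (adjusted p = 0.0129). In the 12 supplement arrays alone this probe was not called over breeds (adjusted p = 0.480), nor on pasture with slide as a random block (adjusted p = 0.377). The CAPN1 lead probe, in contrast, was called over breeds in the supplement arrays alone (adjusted p = 0.00503), where Angus lay at -3.90 to -3.22, Hereford at -2.80 to -1.73 and Wagyu x Angus at -2.81 to -1.98. Each breed lies on 1 slide there, with Angus scanned on day 2 and the others on day 1, so breed cannot be told apart from slide, and on pasture with scan day as a block the CAPN1 adjusted p was 0.454. In pasture LD the adipocyte sums were 4.46 to 6.31 in Angus and 2.34 to 4.48 in Hereford, and the labels do not mark kill. The part of fat content and kill in the breed differences was not tested.

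Within breed and diet groups FBXO32 and TRIM63 varied together across the 36 LD arrays. With group means removed Pearson's r was 0.539 (permutation p = 0.00102, adjusted 0.00408) and Spearman's rho 0.502 (permutation p = 0.00348, adjusted 0.0139), adjusted over the 4 pairs computed. It was 0.531 without the 2 arrays farthest from the FBXO32 median, 0.671, 0.631 and 0.211 within scan days 1, 2 and 3 (n = 16, 12 and 8), and 0.608 after slide means were also removed. FBXO32 with KLF15 gave r = 0.288 (permutation p = 0.111, rho 0.293, p = 0.124). CAST gave r = -0.183 with CAPN1 (permutation p = 0.363, rho -0.183, p = 0.342) and 0.269 with CAPN2 (permutation p = 0.159, rho 0.207, p = 0.267). Within scan days 1, 2 and 3 these 3 pairs gave 0.178, 0.430 and 0.542, then -0.270, 0.098 and -0.299, then 0.295, 0.629 and 0.237, and after slide means were removed 0.303, -0.042 and 0.329. So arrays with more of the 1 ligase also had more of the other, while the relations of calpastatin with the proteases it inhibits did not pass over the 36 arrays.

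As a description, genes among those most like each member over the same 36 arrays, by Pearson's r with group means removed, were HNRNPDL (0.741) and MNAT1 (0.686) for FBXO32. For TRIM63 they were VCP (0.657), HBP1 (0.656) and PSMD7 (0.616), and for KLF15 ZFAND2A (0.765), TMBIM1 (0.749) and SMTNL2 (0.744). MSTN was nearest to HYLS1 (0.769), MARCHF8 (0.751) and CCL28 (0.743). CAPN3 was nearest to MYH13 (0.850), TAB2 (0.847) and MYH14 (0.803). These arrays share slides and scaling, and the genes were picked as the highest among 10680.

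Across tissues the members split into those found mainly in muscle and those found everywhere. TRIM63, CAPN3, MSTN and FBXO32 were highest in LD and next highest in IMF. TRIM63 lay at 4.29 to 6.14 in pasture LD, 2.44 to 5.20 in IMF and -8.41 to -3.02 in SC, where only 5 of 12 arrays read it above background. The fitted difference between LD and SC was 11.61 ± 0.31 for TRIM63 (adjusted p = 2.78e-29) and 11.23 ± 0.14 for CAPN3 (adjusted p = 6.12e-40), with no overlap of arrays, and both sizes rest in part on SC values not above background. For CAPN3 LD lay at 5.18 to 6.22, IMF at 2.21 to 4.77 and SC at -6.30 to -4.79, with 9 of 12 SC arrays above background. FBXO32 was less confined. It was above background on all 12 arrays of every fat depot, at 0.38 to 3.99 in SC, and LD exceeded SC by 4.90 ± 0.23 (29.9-fold, adjusted p = 2.56e-21), with its 3 other probes at 4.53 to 5.33. The MSTN lead probe was not well above background on any SC, Kid or Omen array and was above it on 1 Inter array, so only bounds hold. Its second probe was above background on 1 SC, 1 Kid and 2 Inter arrays and on no Omen array. Pasture LD (-1.46 ± 0.56, SD, n = 24) was at least 25.9-fold higher than SC, at least 54.9-fold higher than Kid and at least 46.0-fold higher than Omen. For IMF these bounds were 5.6-fold, 11.9-fold and 9.94-fold. A bound sets the bright group's mean against the lowest signal still above background on each array of the dim group. The backgrounds are wide here, since 82.9% of value table probes (75.7% of all) were called between LD and SC.

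**Figure D3:**
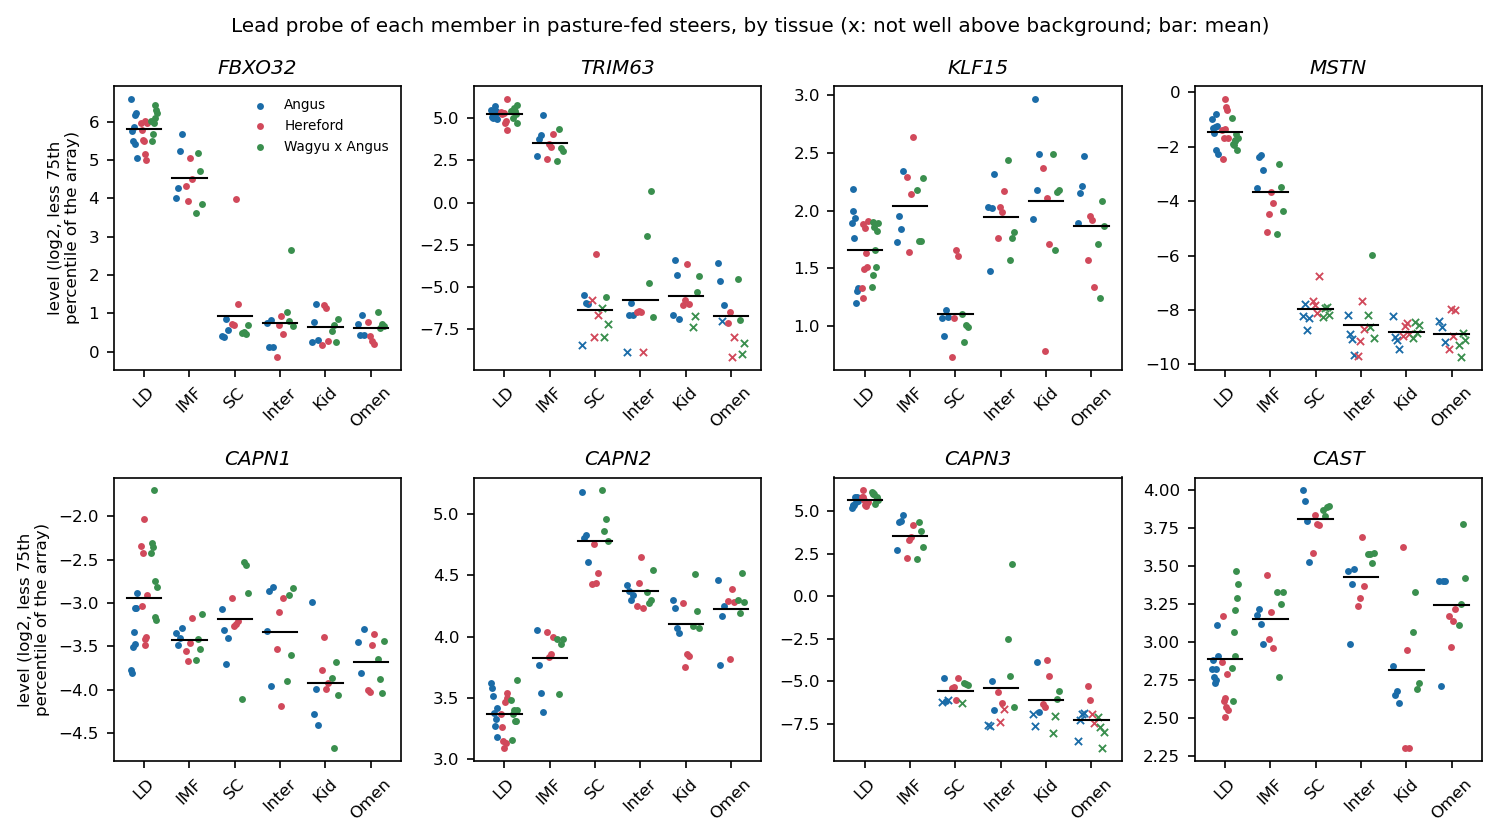
Level of the lead probe of each gene (log2, less the 75th percentile of the array) in every pasture array by tissue, coloured by breed, with crosses for values not well above background and a bar at each mean. TRIM63, CAPN3, MSTN and FBXO32 are highest in LD and then IMF, KLF15 is lowest in SC, and CAPN2 and CAST are highest in SC.

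In the other depots TRIM63, CAPN3 and MSTN were near background on many arrays, while FBXO32 was above it on all of them. FBXO32 did not differ from SC by a called amount in Inter (-0.14 to 2.66), Kid (0.18 to 1.24) or Omen (0.20 to 1.04), nor did TRIM63. An exception among the Inter arrays was a Wagyu x Angus array on slide 5, position 2. It had the highest Inter level of FBXO32 (2.66), TRIM63 (0.67), CAPN3 (1.92) and MSTN (-5.99, the only Inter array above background on the lead probe). Its muscle share was 5.09%, or 11.5% from the myofibre markers, and its myofibre sum was 9.73. A Hereford SC array on slide 17, position 2, had FBXO32 at 3.99, where the other 3 Hereford SC arrays read 0.69, 0.72 and 1.24, and TRIM63 at -3.02. Its smooth muscle markers summed to 7.50, against 3.35 or less on the other SC arrays. Its myofibre sum of 1.37 was the highest of the SC arrays (0.43 to 1.37), and no SC array had a muscle share above 0.058%. The part of these cells in the FBXO32 level was not tested.

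IMF was dissected from LD, and its muscle share was estimated from 2746 probes more than 4-fold higher in LD than SC, members left out, as the median fraction of the LD signal. It ran from 8.45% to 47.6% with a median of 23.9%, and from 16.1% to 65.4% when computed from 11 myofibre markers. Beside this share IMF exceeded SC by a fitted 9.86 ± 0.46 for TRIM63 and 9.12 ± 0.29 for CAPN3, both without overlap and with 5 and 9 of 12 SC arrays above background, and by 3.61 ± 0.33 for FBXO32 (12.2-fold, adjusted p = 1.21e-09), among 64.2% of value table probes called (60% of all). IMF lay below LD by 1.75 ± 0.19 for TRIM63, 2.10 ± 0.19 for CAPN3, 2.21 ± 0.25 for MSTN and 1.29 ± 0.18 for FBXO32 on the log2 scale (largest adjusted p 2.87e-08), among 75.3% of value table probes called (72.1% of all).

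A linear mix of the SC and LD means at each array's own share gave a reference for these levels. CAPN3 in IMF was close to the mix (-0.05 ± 0.12, SD over 12 arrays, 4 of 12 above it), as were TRIM63 (0.29 ± 0.39, 8 of 12 above) and MSTN (-0.30 ± 0.55, 3 of 12 above). FBXO32 lay above it by 0.49 ± 0.50 in 10 of 12 arrays. With the share taken from myofibre markers, FBXO32 was at the mix (-0.04 ± 0.48, 8 of 12 above) and TRIM63 (-0.36), CAPN3 (-0.70) and MSTN (-0.92) lay below it, so the position of these 4 depends on how the share is estimated. KLF15 did not follow a mix of SC and LD under either share. It was above it in 12 of 12 arrays, by 0.74 ± 0.32 with all probes and 0.66 ± 0.33 with markers. CAPN2 (-0.69 ± 0.14 and -0.53 ± 0.15), CAST (-0.46 ± 0.13 and -0.35 ± 0.13) and CAPN1 (-0.39 ± 0.16 and -0.43 ± 0.16) were below it in 12 of 12 arrays under both shares. The fat end of this mix was SC alone, which had the lowest KLF15 mean and the highest CAPN1, CAPN2 and CAST means of the fat depots. KLF15 averaged 1.10 in SC against 1.87 in Omen, 1.95 in Inter and 2.09 in Kid. CAPN2 averaged 4.78 in SC against 4.10 in Kid, 4.23 in Omen and 4.37 in Inter. A mix with another depot as the fat end was not computed. All IMF arrays were scanned on day 3 and 11 of 12 SC arrays on day 1, which the mix does not take into account. With scan day as a block IMF differed from SC by -0.78 for CAPN2, -0.38 for CAST and -0.02 for CAPN1, resting on 1 SC array. The other CAPN2 probes were also below the mix on every IMF array, the other CAST probes on 7 to 12 of 12, and the other CAPN1 probes on 7 to 10 of 12. The dim second KLF15 probe was below the mix in 11 of 12 arrays and above background on 4 of 12 SC, 11 of 12 IMF and 11 of 24 pasture LD arrays.

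**Figure D4:**
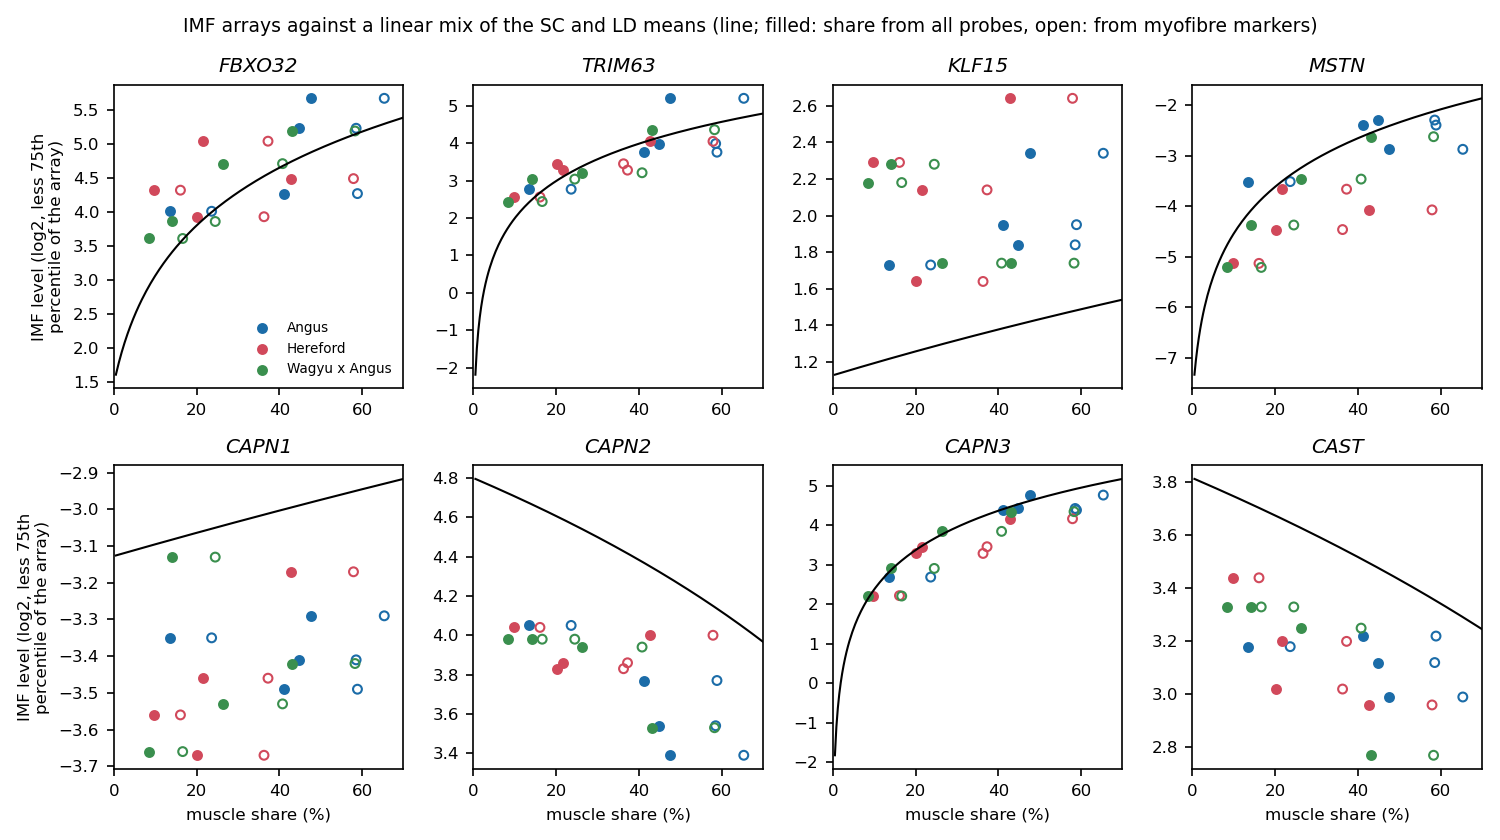
Level of each lead probe in the 12 IMF arrays (log2, less the 75th percentile of the array) against muscle share in percent, with filled points for the share from 2746 probes, open points for the share from 11 myofibre markers, colours for breed and a line for a linear mix of the SC and LD means. By the filled points CAPN3 and TRIM63 run along the line, by the open points they lie below it on 12 and 11 of 12 arrays, and by both KLF15 lies above it and CAPN1, CAPN2 and CAST below it on all 12.

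KLF15 had its lowest mean in SC on the lead probe. Its lead level ran from 0.73 to 1.66 in SC (mean 1.10 ± 0.28, SD, n = 12), against 1.64 to 2.64 in IMF (2.04 ± 0.31), 1.48 to 2.44 in Inter (1.95 ± 0.29), 0.78 to 2.97 in Kid (2.09 ± 0.55) and 1.24 to 2.47 in Omen (1.87 ± 0.36), and 1.20 to 2.19 in pasture LD (1.66 ± 0.28). It exceeded SC by 0.94 ± 0.12 in IMF, 0.85 ± 0.11 in Inter, 0.98 ± 0.17 in Kid, 0.77 ± 0.13 in Omen and 0.56 ± 0.10 in LD, that is by 1.47-fold to 1.98-fold (largest adjusted p 6.85e-05). The arrays overlapped in every pair. The means of IMF, Inter, Kid and Omen lay within 1 SD of each other. Kid kept its call with scan day as a block (0.99, adjusted p = 0.00157). The differences in IMF (0.97) and Omen (0.76) were of like size with that block, but they rest on the 1 SC array scanned on day 3. The second KLF15 probe, above background on few SC arrays, differed from SC by -0.16 to 0.16 and was called in no depot or in LD.

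CAPN2 and CAST ran the other way from KLF15. CAPN2 lead levels were 4.43 to 5.19 in SC, 4.23 to 4.65 in Inter, 3.77 to 4.52 in Omen, 3.75 to 4.51 in Kid, 3.39 to 4.05 in IMF and 3.09 to 3.65 in pasture LD. Against SC it was lower by 0.41 (Inter), 0.55 (Omen), 0.68 (Kid), 0.95 (IMF) and 1.41 (LD) on the log2 scale, all called (largest adjusted p 0.000331), and all 3 of its probes agreed in direction and call. CAST lead levels were 3.53 to 4.00 in SC, 2.99 to 3.69 in Inter, 2.71 to 3.78 in Omen, 2.77 to 3.44 in IMF, 2.30 to 3.63 in Kid and 2.51 to 3.47 in LD. Its log2 differences from SC were -0.38, -0.56, -0.66, -1.0 and -0.93 in that order, all called (largest adjusted p 0.000145). With scan day as a block the IMF difference was -0.38, resting on 1 SC array, and neither IMF nor Omen kept the call. All 10 CAST probes were lower in LD, IMF and Kid, while in Inter only 3 of 10 and in Omen 9 of 10 were called. The means of the protease and its inhibitor were thus both highest in SC, with scan day left out of the fit. CAST in IMF and LD cannot be ordered, since the difference of 0.27 ± 0.09 (adjusted p = 0.00709) was 0.04 with scan day as a block (adjusted p = 0.747).

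CAPN1 did not follow this order. Its lead probe lay at -4.11 to -2.53 in SC, -4.19 to -2.82 in Inter, -3.67 to -3.13 in IMF, -4.04 to -3.30 in Omen (11 arrays), -4.68 to -2.99 in Kid and -3.81 to -1.70 in LD. Relative to SC it was lower in Kid by 0.73 ± 0.18 (adjusted p = 0.00194) and in Omen by 0.49 ± 0.15 (adjusted p = 0.0119), with -0.14 ± 0.19 in Inter and -0.24 ± 0.14 in IMF, not called. The Omen call was lost with slide as a random block (-0.44, adjusted p = 0.0596) and with the deposited values (-0.34, adjusted p = 0.124). IMF and Inter depended on the scaling too. IMF was called with quantile scaling (-0.42, adjusted p = 0.00797), mean scaling (-0.33, adjusted p = 0.0318) and normexp (-0.36, adjusted p = 0.004), and Inter with normexp (-0.44, adjusted p = 0.00364). In LD the difference was 0.25 ± 0.18 (adjusted p = 0.207), or 0.76 (adjusted p = 2.43e-05) with scan day as a block, and its probes disagreed (0.31 ± 0.14 and -0.47 ± 0.15, both called). CAPN3, near background in these depots, had a called difference between Omen and SC (-1.71 ± 0.31, adjusted p = 0.000103), but only 2 of 12 Omen arrays read it above background and another of its probes gave 0.09, so its size and direction are not settled. Among the 7 lead probes 3 differed from SC by a called amount in Inter fat, 4 in Kid and 5 in Omen (CAPN3 included), where 48.8%, 41.7% and 45.7% of all probes were. All 7 were called in a joint test of the 5 fat depots, as were 87.2% of probes. Inter arrays were all scanned on day 2, on which no SC array was scanned, so depot and scan day cannot be told apart there, and with scan day as a block Omen kept no call (all but 2 Omen arrays, and 1 SC array, were scanned on day 3).

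Breed was tested across the 60 fat arrays with depot in the fit, where 3.2% of probes were called. This test counts a steer once for each depot it gave, so its p-values may be too small. No lead probe was called. A single CAST probe, A_73_P102961, was lower in Wagyu x Angus (F = 21.3, adjusted p = 7.92e-05), by 0.57 on the log2 scale against Angus (-0.57 ± 0.10, adjusted p = 0.000875, among 0.754% of probes called) and by 0.55 against Hereford (-0.55 ± 0.10, adjusted p = 0.000305, among 3.46%). In IMF the Wagyu x Angus arrays read 1.63, 1.76, 1.80 and 1.97, below all Angus (2.12 to 2.55) and Hereford (2.15 to 2.55) arrays. In Inter they read 1.96, 2.08, 2.24 and 2.33, below all Angus (2.62 to 3.05) and Hereford (2.53 to 3.03) arrays. In SC they read 1.81, 2.18, 2.27 and 3.01 beside 2.78 to 3.17 in the other breeds. In Kid they read 1.39, 1.40, 1.58 and 1.66 beside 1.37 to 3.12, and in Omen 1.77, 2.04, 2.49 and 2.64 beside 1.74 to 2.89, so the breeds overlapped in these 3 depots. The probe kept its call with slide (adjusted p = 0.00022) or scan day (adjusted p = 0.000113) as a block and in the other alternatives (adjusted p 1.97e-05 to 0.00196).

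The 9 other CAST probes were not called by breed in fat, with an adjusted p of 0.407 for the lead probe, whose Wagyu x Angus mean was the highest of the breeds in 5 of 5 depots. The lower level was therefore called on this CAST probe alone, and whether its breed difference departs from that of the other probes was not tested. In pasture LD the probe averaged 1.61 ± 0.49 (SD, n = 8 per breed) for Angus, 1.75 ± 0.63 for Hereford and 1.62 ± 0.37 for Wagyu x Angus. The test of whether the breed difference depends on muscle against fat did not pass (F = 3.68, adjusted p = 0.128, where 11.7% of probes were called), so it was not shown to be confined to fat. A CAPN2 probe, A_73_P071716, was also called by breed in fat (adjusted p = 0.0494), 0.29 ± 0.09 higher in Wagyu x Angus than Hereford (adjusted p = 0.0468), and lost its call with slide as a random block (adjusted p = 0.0732).

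**Figure D5:**
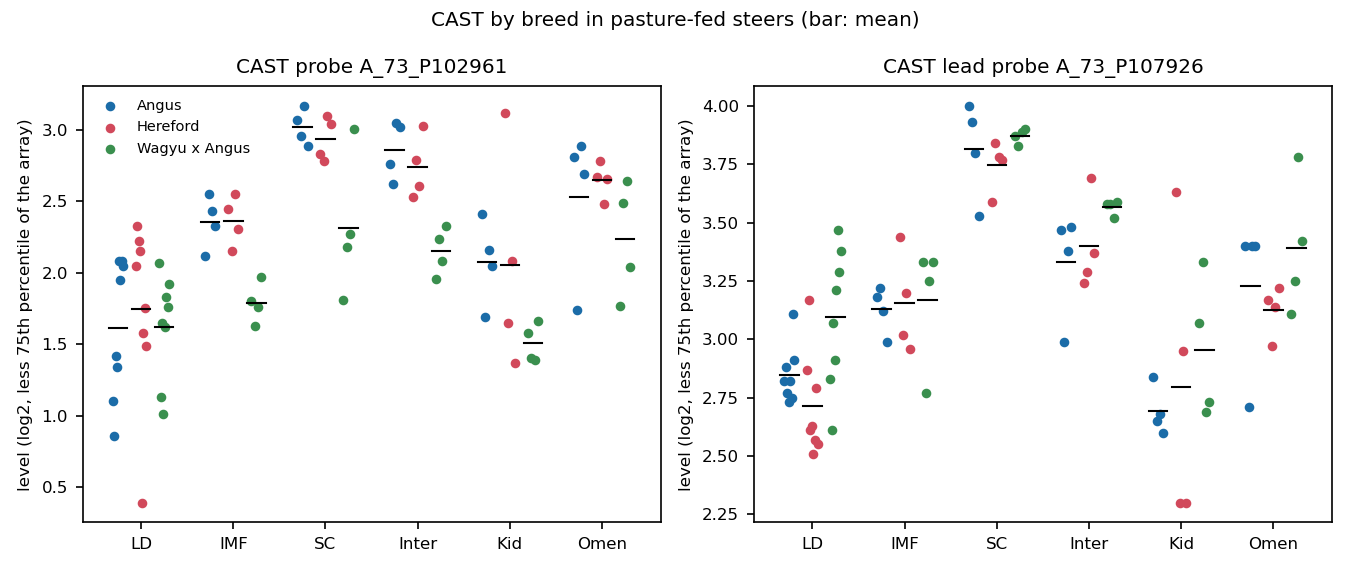
Level of the CAST probe A_73_P102961 (left) and of the CAST lead probe (right) in each pasture array (log2, less the 75th percentile of the array), by tissue and breed with a bar at each mean. On the left the Wagyu x Angus arrays lie below both other breeds in IMF and Inter, and on the right they do not.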

How the data were processed

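RNA was read on 96 one colour Agilent bovine arrays, 1 per sample. The authors deposited scanner intensity values per spot, already background-subtracted by Feature Extraction, and a table of log2 values per probe, which equals log2 of the median signal minus the median background (floor 1) with no scaling between arrays. The intensity values (processed signal) were the starting point here, and the deposited table chose the 34227 probes tested of 43653 non-control probes. Outlier spots were left out. Each array was scaled to its 75th percentile on the log2 scale. Groups, taken from the labels, were compared with limma 3.58.1 (lmFit, eBayes) in R 4.3.3, two-sided, with Benjamini-Hochberg adjustment over all probes and a threshold of 0.05. LD diet had breed as a covariate, breeds and interactions were F tests, and depots were compared pairwise with SC. The probes of MSTN, and 4 of CAPN3 and 1 of TRIM63, were fitted and adjusted over all non-control probes. Correlations were tested by 100000 permutations within breed and diet groups. FOXO1 and FOXO3 had no matched probe, so 4 of 8 planned pairs were run. All 8 matched members are named, with pathway genes only where called in LD. The 3 genes most like FBXO32, TRIM63, KLF15, MSTN and CAPN3 are given, less 1 gene that is not reported here. The members and lists were chosen with earlier results of these data known. Of the 34227 probes 62.7% could be named, by accession or the study's tables. The mixed model normalisation named in the study's methods was not repeated.

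Replicate numbers in the labels are the array's position on its slide (96 of 96) and not an animal. Same-numbered arrays did not deviate together (median r 0.019 over 130 pairs, from -0.27 to 0.336). Array number and signal over background limit the precision. No pair of arrays was identical. The fit was run on simulated arrays with known changes and independent noise. They held no slide effect, so they cannot show how slides move the p-values. Alternatives were quantile and mean scaling, normexp with offset 50, the deposited values, all probes, a filter on dim probes, the methods' t-test (equal variances), slide, scan day or replicate blocks, single breeds, other probes of each gene and leaving out arrays. Same-day pasture arrays, LD without the pasture arrays on slides 2, 20 and 23 (chosen for their adipocyte marker sums), IMF without its 3 arrays of highest muscle share, all probes for MSTN, and breed by muscle against fat were added after seeing the data.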

Additional observations from a re-analysis of the deposited data

Results flagged for a closer look

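Of 154 tests of single arrays within a breed, diet and tissue group, 10 found an array apart from its group, and about 1 in 20 such groups is found by chance. In IMF of Wagyu x Angus the lowest CAPN2 level was 3.53 (nearest 3.94) and the lowest CAST level 2.77 (nearest 3.25). In LD the highest CAPN2 level in supplement Wagyu x Angus was 3.55 (nearest 3.26) and the highest CAST level in pasture Angus 3.11 (nearest 2.91). In SC CAPN3 had a high Angus array at -4.79 (nearest -6.09) and a low Wagyu x Angus array at -6.30 (nearest -5.24), both near background. CAST had a low Omen Angus array at 2.71, where the nearest other array read 3.40. FBXO32 had a high SC Hereford array at 3.99 (nearest 1.24), the array with the high smooth muscle sum of 7.50. TRIM63 had a low Inter Hereford array at -8.84 (nearest -6.49), not well above background, and a high Kid Hereford array at -3.62 (nearest -5.80).

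The diet difference in LD differed between breeds for 3 CAST probes, by the diet by breed term of the fit. The adjusted p was 0.00452 for A_73_P109106, 0.0144 for A_73_P351986 and 0.0261 for A_73_P107551. Slide could not be told apart from diet within a breed.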

How the results depend on the processing

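Of 1046 alternatives for single members, 991 kept direction and side of the threshold, 38 lost the call, 16 gained it and 1 reversed, TRIM63 in Kid against SC with normexp (-0.48, adjusted p = 0.03). Where either probe was called, another probe of the gene had the opposite sign for KLF15 in Kid (-0.14), Omen (-0.16) and LD (-0.14) against SC, for CAPN3 in Omen against SC (0.093), and for CAPN1 in LD against SC (-0.47) and IMF against LD (0.20). With neither probe called, signs also differed for TRIM63, CAPN3, FBXO32 and CAPN1 in some depots and for CAPN1 and CAST between LD diets. The count of probes called between LD diets was 3850. It was 1129 with normexp, 1 with slide as a random block, 2306 with scan day as a block, 2093 within scan day 2, 2463 without a breed term, 1788, 2283 and 1190 within Angus, Hereford and Wagyu x Angus, 2454 with same-day pasture arrays and 5866 with other-day pasture arrays, both added later. Leaving out 1 array gave 2843 to 4707, with 0 to 0 lead probes of the value table called. The diet by breed count of 5539 was 1138 with normexp, 0 with slide as a random block, 2970 with scan day as a block, 3331 with same-day pasture arrays and 3583 to 5860 leaving out 1 array (3583 without Angus supplement slide 1, position 3), with 0 to 1 lead probes called, the 1 being CAST without Hereford supplement slide 12, position 4 (adjusted p = 0.0364). For breeds on pasture LD 5044 probes became 2502 with normexp, 0 with slide as a random block, 8649 with all 36 arrays and 7859 with the supplement arrays alone. Lead probes called there went from 0 to 2 (CAPN1 and CAPN3) with all 36 arrays and to 1 (CAPN1) with supplement arrays alone. The replicate block, although its numbers pair no animals, gave 2 (CAPN1 adjusted p = 0.0498, CAST adjusted p = 0.0485). The fat breed count of 1094 was 663 with mean scaling and 689 with normexp. IMF against SC had 21958 probes called, 6847 with scan day as a block and 4652 within scan day 3 (lead probes 6 to 3), resting on 1 SC array. Without the 3 IMF arrays of highest muscle share it had 20525, with 6 lead probes. Kid against SC rose from 14263 to 21431 with normexp. Omen against SC fell from 15654 to 1511 with scan day as a block (lead probes 5 to 0) and 881 within scan day 3 (lead probes 0). The causes were not tested.

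MSTN between LD diets kept its direction in all alternatives run and lost its call in 12 of 18, with an adjusted p of 0.00918 to 0.0524 leaving out 1 array. Probes near background, MSTN, TRIM63 and CAPN3 in fat depots other than IMF, give bounds or wide values there. After Benjamini-Hochberg adjustment the methods' t-test called 21955 probes and 6 lead probes between IMF and SC, and 3854 probes and 0 lead probes between LD diets.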
